A study of Mus musculus with 12 samples.

Results

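The 9 genes Esm1, Apln, Aplnr, Adm, Calcrl, Ramp2, Cxcr4, Cd34 and Mcam were followed in muscle vascular anomalies and normal muscle of mice. They were chosen by symbol, as genes of the sprouting endothelial tip cell and of the apelin and adrenomedullin systems, and all 9 were found among the 30389 genes of the expression table. Messenger RNA was sequenced in 12 libraries of C57BL/6 muscle, 6 per group, from 3 animals per group with 2 libraries each. The anomaly animals, called SBxVEC-Cre+ by the submitters, carried VEC-Cre, the SB Transposase and onc3. The normal animals carried the SB Transposase and onc3 without Cre. In VEC-Cre the recombinase is driven by the VE-cadherin promoter, active in endothelium, and onc3 is a transposon that the Sleeping Beauty transposase can move, so both groups held the transposon system and the anomaly group alone held the endothelial Cre. Each pair of libraries came from 2 tissue pieces of an animal, which were 2 lesions in anomaly animal 2, and the animal was taken as the replicate. Ages were not given in the labels, and animals are numbered here in order of deposit.

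New vessels grow from tip cells, endothelial cells at the front of a sprout that extend filopodia, while the cells behind them form the lumen. ESM1 (endocan) is a proteoglycan and apelin (Apln) a peptide that tip cells secrete, whereas the apelin receptor (Aplnr), a G protein-coupled receptor, is borne by other endothelial cells, mainly of veins and growing capillaries. Adrenomedullin (Adm) is a vasodilator peptide that many tissues make under low oxygen. Its receptor is a pair of proteins, the G protein-coupled receptor CALCRL and an accessory protein of the RAMP family, of which RAMP2 gives a receptor for adrenomedullin and RAMP1 a receptor for calcitonin gene-related peptide. CXCR4 is the receptor of the chemokine CXCL12 on endothelium and leukocytes. CD34, a sialomucin, and MCAM (CD146), an adhesion molecule, mark the endothelial surface, and both are also found on other cells, CD34 on blood progenitors and some fibroblasts and MCAM on pericytes.

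Promoters of Esm1, Apln and Adm are shown because these 3 members encode secreted products and were all far highest in anomaly animal 1, as described below. Each sequence is the 250 bases before the transcription start in RefSeq (GRCm38.p6), printed 5′ to 3′ on the gene's strand. Capitals mark the core letters of a hypoxia response element, ACGTG or GCGTG on either strand, which is the motif that hypoxia-inducible factors bind.
Esm1, chr13:113209409-113209658, plus strand: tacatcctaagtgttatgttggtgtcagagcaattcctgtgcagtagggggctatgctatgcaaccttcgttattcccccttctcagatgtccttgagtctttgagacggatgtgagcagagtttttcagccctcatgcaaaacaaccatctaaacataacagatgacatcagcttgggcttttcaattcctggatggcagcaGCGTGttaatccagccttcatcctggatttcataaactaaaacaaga
Apln, chrX:48034854-48035103, minus strand: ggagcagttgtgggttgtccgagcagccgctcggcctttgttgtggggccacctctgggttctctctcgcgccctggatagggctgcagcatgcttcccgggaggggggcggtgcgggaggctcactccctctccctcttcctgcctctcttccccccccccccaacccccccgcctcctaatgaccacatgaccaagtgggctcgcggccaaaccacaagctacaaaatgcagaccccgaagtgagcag
Adm, chr7:110627407-110627656, plus strand: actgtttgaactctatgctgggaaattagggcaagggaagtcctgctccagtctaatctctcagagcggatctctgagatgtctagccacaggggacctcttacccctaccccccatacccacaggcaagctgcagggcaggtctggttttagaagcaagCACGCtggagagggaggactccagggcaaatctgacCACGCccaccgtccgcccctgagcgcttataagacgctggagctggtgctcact
The Esm1 window held 1 match, starting at position -47 from the transcription start, and the Adm window held 2, at -90 and -54, both of them GCGTG on the opposite strand. None was present in the Apln window. Among the other members, Cxcr4 had 1 match, at -39, and Calcrl, Cd34 and Mcam had none, while Aplnr and Ramp2 were not in the promoter table. Matches were thus present in 3 of 7 member promoters, against 38.6% of 32851 promoters of the same length, and 2 or more were present in 16.7% of those promoters. A match describes letters of the window, not a site in use.

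Between 254404 and 18476461 reads were recovered per anomaly library, and between 17380211 and 32155879 per normal library. The lowest depth, by far, was that of piece 1 from anomaly animal 1, where 1 unit was worth 1.85 CPM (a read count scaled to an effective library size), while 1 read elsewhere was worth 0.0719 CPM or less. In that library 40.4% of detected genes stood at exactly 1 unit, against at most 13.4% in any other, so its units may not be reads as sequenced. Markers of muscle fibre summed to 193 to 27095 CPM in anomaly libraries, against 216523 to 292765 CPM in normal libraries. All 6 of them were lower by the test used below, against 31.0% of all genes tested. All 12 endothelial markers were higher, against 32.4% of all genes tested. They summed to 2244 to 7213 CPM in anomaly libraries, against 311 to 456 CPM in normal libraries. The anomaly samples were therefore muscle by label but held far less fibre RNA than normal muscle. Animal 3 kept the most of it, with fibre marker sums of 1034, 318 and 17929 CPM in anomaly animals 1, 2 and 3. In bulk tissue, fewer cells of a type and less RNA per cell cannot be told apart, and this holds for every level below.

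The first comparison asked how the members differed between anomaly tissue and normal muscle. Of the 9 members, 8 were higher in anomaly tissue by limma at an adjusted p under 0.05, none was lower, and Esm1 did not pass. Among all 14687 genes tested, 63.4% were called, 32.4% higher and 31.0% lower. Scaling by library totals alone gave 8962 higher and 1850 lower genes, with a shift of all genes to a median of 0.97 on the log2 scale, against 4765 and 4553, and the 8 members remained higher. The median log2 fold change, on the log2(CPM + 1) scale, was 3.57 over the 9 members and 0.09 over all genes tested. In 9 of 9 members every anomaly animal exceeded every normal animal, which was so for 37.6% of all genes. In 8 of 9, all but Esm1, every anomaly library exceeded every normal library, which was so for 28.8% of all genes. Esm1, at 0.827 CPM in normal animals, was tested only because its anomaly mean reached 1 CPM. The members had been selected with earlier results of these data in view, so these counts describe them and do not single them out.

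**Figure D1:**
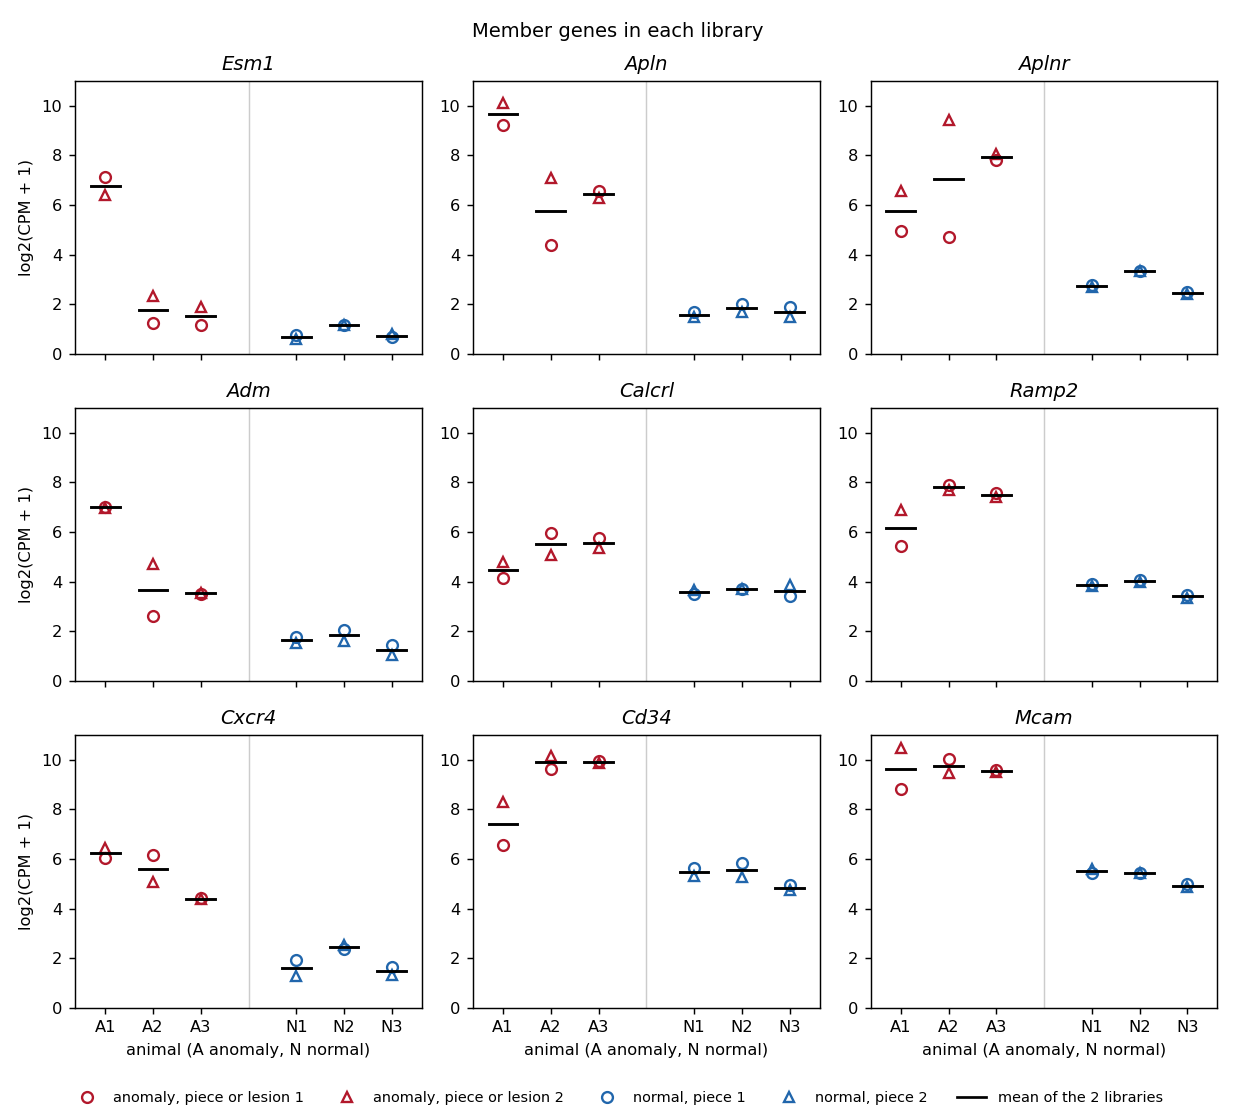
Expression of the 9 genes in each of 12 libraries, as log2(CPM + 1), with anomaly animals (A1 to A3) left of normal animals (N1 to N3), circles and triangles for the 2 pieces and bars for the mean of an animal. Except for Esm1, every anomaly library lies above every normal library, and Esm1, Apln and Adm are far higher in animal A1 than in A2 and A3.

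Apln, the apelin gene on chromosome X (48025146 to 48034853, GRCm38, minus strand), had the largest fold change of the members. Its level was 600 and 1095 CPM in the 2 libraries of anomaly animal 1, 20 and 134 CPM in the lesions of animal 2, and 94.7 and 76.9 CPM in animal 3, against 1.75 to 3.06 CPM in normal libraries. No library of one group reached the other, and the lowest anomaly library was the first lesion of animal 2. Mean levels were 337 ± 442 CPM in anomaly and 2.29 ± 0.318 CPM in normal animals (SD, n = 3 each), a log2 fold change of 5.57 ± 0.97 (SE, limma adjusted p = 0.0034) that ranked 13 among 14687 genes.

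Aplnr, the apelin receptor gene (chromosome 2, 85136225 to 85139923, plus strand), was higher as well. It had 29.6 and 92.7 CPM in anomaly animal 1, 25 and 683 CPM in the lesions of animal 2 and 223 and 266 CPM in animal 3, against 4.31 to 9.21 CPM in normal libraries. The 2 lesions of animal 2 held the lowest and the highest anomaly value, 27.3-fold apart, and all 6 lay above normal muscle. The log2 fold change was 4.08 ± 0.56 (SE, limma adjusted p = 0.00148), from 220 ± 148 CPM in anomaly and 6.39 ± 2.48 CPM in normal animals (SD, n = 3 each). Among 3 genes listed as partners of apelin and reported here, 2 were tested. Of these 1 was higher and 1 lower, against 32.4% higher and 31.0% lower among all genes tested. Furin, a protease of precursor proteins, was higher by 0.93 ± 0.24 (limma adjusted p = 0.0141), a call that was lost with piece 2 alone (adjusted p = 0.0903) and without normal animal 1 (0.0613). Mme (neprilysin), a peptidase that cuts apelin, was lower by -1.34 ± 0.42 on the log2 scale (limma adjusted p = 0.0311), a call that was lost in 9 of 18 alternatives. Apela, the second ligand of the receptor, had 7 reads in the second lesion of anomaly animal 2 and 0 in the other 11 libraries.

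Adm (chromosome 7, 110627661 to 110629820, plus strand) was higher in anomaly tissue, and its level was uneven among the anomaly animals. It had 126 and 125 CPM in anomaly animal 1, 5.03 and 24.8 CPM in the lesions of animal 2 and 10.2 and 10.7 CPM in animal 3, against 1.08 to 3.18 CPM in normal libraries. The groups did not overlap, although the first lesion of animal 2 came close to normal muscle. The log2 fold change was 3.14 ± 0.93 (SE, limma adjusted p = 0.0244), with means of 50.4 ± 65.3 CPM in anomaly and 2.05 ± 0.607 CPM in normal animals (SD, n = 3 each). The call was lost in 6 of 18 alternatives, namely without a filter on low values (adjusted p = 0.0617), with piece 1 alone (0.0701), with voom on summed reads (0.0826) and without normal animal 1 (0.0651), 2 (0.0571) or 3 (0.0768). Without anomaly animal 1 the log2 fold change was 2.00, with a limma adjusted p of 0.00166.

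Both parts of the adrenomedullin receptor were higher. Calcrl (chromosome 2, 84330626 to 84425411, minus strand) had 16.7 and 26.2 CPM in anomaly animal 1, 61.5 and 32.1 CPM in animal 2 and 53.4 and 39.5 CPM in animal 3, against 9.71 to 13.4 CPM in normal libraries. Its log2 fold change of 1.54 ± 0.32 was the smallest of the members (SE, limma adjusted p = 0.00633), from 38.2 ± 14.5 CPM in anomaly and 11.5 ± 0.466 CPM in normal animals (SD, n = 3 each). Ramp2 (chromosome 11, 101246028 to 101259546, plus strand) had 42.6 and 117 CPM in anomaly animal 1, 238 and 208 CPM in animal 2 and 191 and 167 CPM in animal 3, against 9.18 to 15.7 CPM in normal libraries. For both genes animal 1 was the lowest of the anomaly animals, and its pieces still exceeded all normal libraries. Ramp2 gave a log2 fold change of 3.39 ± 0.44 (SE, limma adjusted p = 0.00123), from 161 ± 73.5 CPM in anomaly and 12.8 ± 2.88 CPM in normal animals (SD, n = 3 each). Of its annotated exonic bases 1103 are shared with Vps25, on the same strand, so reads of the 2 genes could not be told apart there.

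The other RAMP genes moved in different directions. Ramp1 fell, with a log2 fold change of -2.96 ± 0.54 (SE, limma adjusted p = 0.00394), at 4.69 ± 4.62 CPM in anomaly and 34.9 ± 7.64 CPM in normal animals (SD, n = 3 each). Ramp3, whose product also makes an adrenomedullin receptor with CALCRL, rose by 1.89 ± 0.36 (SE, limma adjusted p = 0.00485), at 5.40 ± 3.65 CPM in anomaly and 0.401 ± 0.133 CPM in normal animals (SD, n = 3 each). It was tested only because its anomaly mean reached 1 CPM. Per kilobase of exon, Ramp2 made up 84.0%, 90.6% and 91.8% of the 3 RAMP genes together in anomaly animals 1, 2 and 3, against 31.5%, 25.9% and 18.3% in normal animals 1, 2 and 3. Ramp1 made up 3.08 ± 2.33% in anomaly and 72.9 ± 6.21% in normal animals, so the leading RAMP transcript was Ramp2 in anomaly tissue and Ramp1 in normal muscle in each of the 12 libraries. The Ramp2 share averaged 88.8 ± 4.19% in anomaly and 25.3 ± 6.66% in normal animals (SD, n = 3 each), with an exact two-sided permutation p of 0.1, the smallest that 3 animals against 3 can give. This share was chosen after the values had been seen. It differed alongside the muscle fibre and endothelial markers given above, whose part in the result was not tested.

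Of 12 genes listed as partners of adrenomedullin and reported here, 11 were measured and 8 tested. Among the 8, 5 were higher, 1 (Ramp1) lower and 2 not called, against 32.4% higher and 31.0% lower among all genes tested. The median of the 8 log2 fold changes was 1.26. Those higher besides Ramp3 were Pam (1.72 ± 0.30, limma adjusted p = 0.00339), the enzyme that amidates adrenomedullin, the scavenger receptor gene Ackr3 (1.36 ± 0.36, 0.0162) and the arrestin genes Arrb1 (1.16 ± 0.29, 0.0131) and Arrb2 (2.09 ± 0.29, 0.00148). Crcp, a component of the calcitonin gene-related peptide receptor, gave -0.46 ± 0.18 (limma adjusted p = 0.0576), with calls in both directions under other settings. Adm2, the related peptide intermedin, had no reads in 6 of 6 normal libraries and 0 to 14 reads in anomaly libraries, and its test gave an adjusted p of 0.215. Calca, Calcb and Calcr were below the filter. Calca had 74 and 30 reads in the lesions of anomaly animal 2 and 0 to 2 in the other libraries, and Calcb had 54 reads in piece 2 of anomaly animal 1 and 0 or 1 elsewhere. Iapp was not measured.

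**Figure D2:**
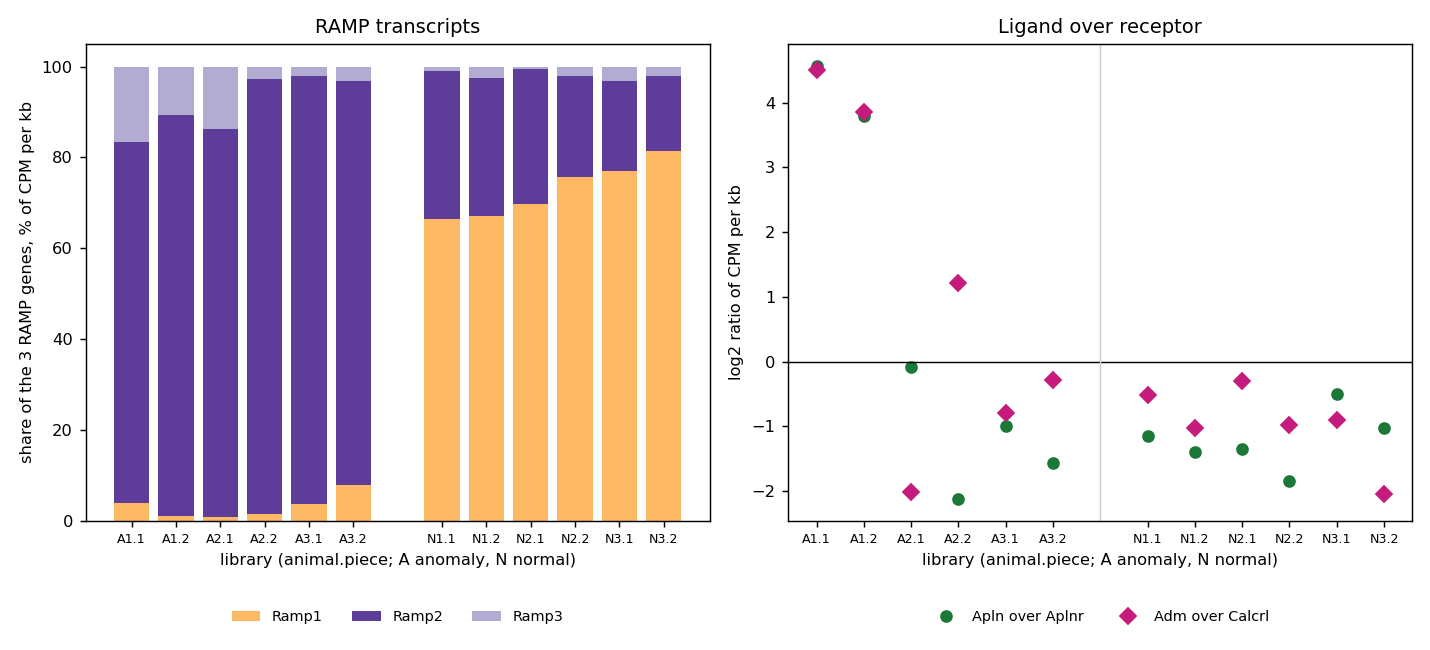
Left, share of Ramp1, Ramp2 and Ramp3 in their summed CPM per kilobase, in percent, for each library, with anomaly libraries (A, animal.piece) left of normal libraries (N). Right, log2 ratio of ligand to receptor CPM per kilobase. Ramp2 leads in all anomaly libraries and Ramp1 in all normal ones, and both ratios are above 3 only in the 2 libraries of anomaly animal 1.

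Ligand and receptor were set against each other within a library, per kilobase of exon and on the log2 scale, as ratios chosen after the values had been seen. Apln over Aplnr was 4.18 in anomaly animal 1, -1.11 in animal 2 and -1.28 in animal 3, against -1.27, -1.60 and -0.76 in normal animals 1, 2 and 3. Apelin transcripts thus outnumbered those of the receptor in anomaly animal 1 alone. The groups differed by 1.81 with an exact permutation p of 0.6, and by 0.02 without anomaly animal 1. Adm over Calcrl had the same order, at 4.18, -0.40 and -0.55 in anomaly animals 1, 2 and 3, against -0.77, -0.64 and -1.47 in normal animals 1, 2 and 3. Its difference was 2.04 (exact permutation p = 0.1, the smallest possible), and 0.49 without anomaly animal 1. With piece 1 alone it was 1.13 (exact p = 0.9), and the lesions of anomaly animal 2 stood at -2.02 and 1.22.

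Esm1 (chromosome 13, 113209659 to 113218098, plus strand), the gene most used as a tip cell marker, was the 1 member that did not pass. It had 137 and 83.8 CPM in anomaly animal 1, 1.38 and 3.95 CPM in the lesions of animal 2 and 1.25 and 2.68 CPM in animal 3, against 0.500 to 1.26 CPM in normal libraries, where it rested on 8 to 30 reads. Animal 1 stood far above all other animals, and the lowest library of animal 3 fell within the normal range. The log2 fold change was 2.50 ± 1.37 (SE, limma adjusted p = 0.15), with means of 38.4 ± 62.4 CPM in anomaly and 0.827 ± 0.359 CPM in normal animals (SD, n = 3 each). Leaving out anomaly animal 1 lowered the log2 fold change to 0.80 and gave a limma adjusted p of 0.0306. The test passed in 3 of 18 alternatives.

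Cxcr4 (chromosome 1, 128588199 to 128592293, minus strand) was higher by 3.57 ± 0.51 on the log2 scale (SE, limma adjusted p = 0.0017). It had 64.9 and 86.2 CPM in anomaly animal 1, 69.6 and 32.3 CPM in animal 2 and 20.5 and 19.6 CPM in animal 3, against 1.44 to 4.69 CPM in normal libraries. Both libraries of animal 3 were below those of the other anomaly animals, and the groups did not overlap. Means were 48.8 ± 27.8 CPM in anomaly and 2.79 ± 1.42 CPM in normal animals (SD, n = 3 each). Leukocyte markers had a similar order, with sums of 447, 443 and 105 CPM in anomaly animals 1, 2 and 3 and a range of 100.4 to 568 CPM in anomaly libraries, against 12.6 to 63.8 CPM in normal libraries. Of these markers 5 of 7 were higher, against 32.4% of all genes tested, and none was at 0 in any library. The 2 not called were the lymphocyte markers Cd3e (-0.84 ± 0.43, limma adjusted p = 0.126) and Cd79a (0.53 ± 0.28, 0.138). The part of leukocytes in the Cxcr4 result was not tested. Of the 3 listed genes of the CXCL12 axis, 2 were higher, Ackr3 and Cxcl12 itself, against the same 32.4% of all genes. Cxcl12 had 277 ± 83.0 CPM in anomaly and 116 ± 24.8 CPM in normal animals (SD, n = 3 each). Its log2 fold change was 1.11 ± 0.29 (SE, limma adjusted p = 0.0153). The Cxcl12 call was lost with piece 1 alone (0.69, adjusted p = 0.137) and without normal animal 3 (adjusted p = 0.0578), and the Ackr3 call with piece 1 alone (adjusted p = 0.0837). Dpp4, a peptidase that inactivates CXCL12, gave -0.42 ± 0.52 (limma adjusted p = 0.496). Per kilobase, the log2 ratio of Cxcl12 to Cxcr4 was 0.39 ± 0.63 in anomaly and 3.32 ± 0.56 in normal animals (SD, n = 3 each, exact permutation p = 0.1, the smallest possible). The lesions of anomaly animal 2 stood at -1.34 and 1.46. This ratio restates the fold changes of the 2 genes.

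Cd34 (chromosome 1, 194938819 to 194961279, plus strand) had 94.5 and 312 CPM in anomaly animal 1, 786 and 1155 CPM in animal 2 and 991 and 936 CPM in animal 3, against 25.5 to 55.7 CPM in normal libraries. Animal 1 was lowest, and its pieces remained above all normal libraries. The log2 fold change was 3.78 ± 0.70 (SE, limma adjusted p = 0.00417), from 712 ± 441 CPM in anomaly and 39.6 ± 10.5 CPM in normal animals (SD, n = 3 each). Mcam (chromosome 9, 44134469 to 44142727, plus strand) had 447 and 1418 CPM in anomaly animal 1, 1034 and 712 CPM in animal 2 and 774 and 731 CPM in animal 3, against 27.8 to 47.3 CPM in normal libraries. Its anomaly animals, as means of 2 libraries, were the most even of the members, although the pieces of animal 1 were 3.2-fold apart. Means were 853 ± 91.6 CPM in anomaly and 38.6 ± 8.34 CPM in normal animals (SD, n = 3 each). The log2 fold change of Mcam was 4.37 ± 0.22 (SE, limma adjusted p = 0.000111). Cd34 and Mcam share 148 and 17 exonic bases with antisense genes, and the libraries were unstranded. Markers of other cells known to carry these molecules were read as well, beside 32.4% higher and 31.0% lower among all genes tested. Pericyte and smooth muscle markers, 5 of 8 higher and none at 0, summed to 954 to 2743 CPM in anomaly libraries, against 261 to 610 CPM in normal libraries. Fibroblast markers, 1 of 6 higher and none at 0, summed to 565 to 2652 CPM in anomaly libraries, against 118 to 569 CPM in normal libraries. Their median log2 fold change was -0.55, and the higher sum came from Col1a1, at 1493 CPM on average in anomaly and 44.1 CPM in normal animals. Blood progenitor markers, 2 of 4 higher and 1 lower, summed to 108 to 263 CPM in anomaly libraries, against 18.2 to 28.9 CPM in normal libraries. The part of these cells in the results was not tested.

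Compared per kilobase of exon, the order of the members changed. Mean levels in anomaly animals were 255 CPM per kilobase for Mcam, 107 for Apln, 97.8 for Cd34, 59.5 for Aplnr, 48.7 for Ramp2, 31.1 for Adm, 27.0 for Cxcr4, 18.3 for Esm1 and 7.83 for Calcrl, and the ranges of all neighbours in this order overlapped. In normal animals they were 11.5 CPM per kilobase for Mcam, 5.44 for Cd34, 3.87 for Ramp2, 2.35 for Calcrl, 1.73 for Aplnr, 1.54 for Cxcr4, 1.27 for Adm, 0.728 for Apln and 0.395 for Esm1. There, Cd34 overlapped Ramp2, and Calcrl, Aplnr, Cxcr4 and Adm each overlapped the next in order, whereas Mcam, the pair of Cd34 and Ramp2, that group of 4, Apln and Esm1 were separated by gaps. By these means Apln, next to last in normal muscle, was second in anomaly tissue. Calcrl, ahead of the other receptor genes Aplnr and Cxcr4 in normal muscle, was last in anomaly tissue. Both places rested on anomaly animal 1. Apln stood at 269, 24.5 and 27.2 CPM per kilobase in anomaly animals 1, 2 and 3. In animals 2 and 3 it was below Cd34, Aplnr and Ramp2. Calcrl stood at 4.40, 9.59 and 9.52 in the same order. In animals 2 and 3 it was above Adm (9.22 and 6.45) and Esm1 (1.27 and 0.938).

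The second comparison asked how the anomaly animals differed among themselves. By limma's F test on single libraries, 7 of 9 members differed among the 3 anomaly animals, against 35.1% of all genes tested. Here the error is the spread between pieces of an animal and not between animals. Esm1 differed most, with animals 2 and 3 differing from animal 1 by -4.98 and -5.23 on the log2 scale (adjusted p = 1.19e-05), followed by Adm (0.000733), Apln (0.00207), Cd34 (0.00248), Cxcr4 (0.00619), Ramp2 (0.0105) and Calcrl (0.034). Aplnr (0.278) and Mcam (0.931) did not pass. With the shallow library of animal 1 left out, 7 members again passed, against 44.5% of all genes tested, but Calcrl no longer did (0.196) and Mcam did (0.0279).

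The place of animal 1 differed between members. As deviations from the normal mean in log2(CPM + 1), anomaly animals 1, 2 and 3 stood at 5.91, 0.93 and 0.68 for Esm1, at 7.96, 4.03 and 4.73 for Apln, at 5.41, 2.07 and 1.94 for Adm and at 4.40, 3.76 and 2.55 for Cxcr4. These 4 genes were highest in animal 1. Animal 1 was lowest for Aplnr, Calcrl, Ramp2 and Cd34, at 2.91, 4.23 and 5.10 for Aplnr, which did not pass the F test and whose lowest library was a lesion of animal 2, 0.82, 1.87 and 1.92 for Calcrl, 2.40, 4.04 and 3.73 for Ramp2 and 2.14, 4.60 and 4.62 for Cd34. Mcam was even as means over pieces, at 4.36, 4.46 and 4.27. With piece 2 of animal 1 alone, animals 2 and 3 differed from animal 1 by -0.72 and -0.91 for Mcam (limma F test, adjusted p = 0.0279). A margin of 2 log2 units of animal 1 above both other anomaly animals, chosen after the values had been seen, was met by Esm1, Apln and Adm and by 181 of 14687 genes (1.23%). An equal margin below both was met by Cd34 and by 220 genes (1.50%), although for Cd34 it shrank to 1.61 with piece 2 of animal 1 alone. Endothelial markers summed to 3676, 5471 and 6498 CPM in anomaly animals 1, 2 and 3 and were thus also lowest in animal 1. Their part in these differences was not tested.

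**Figure D3:**
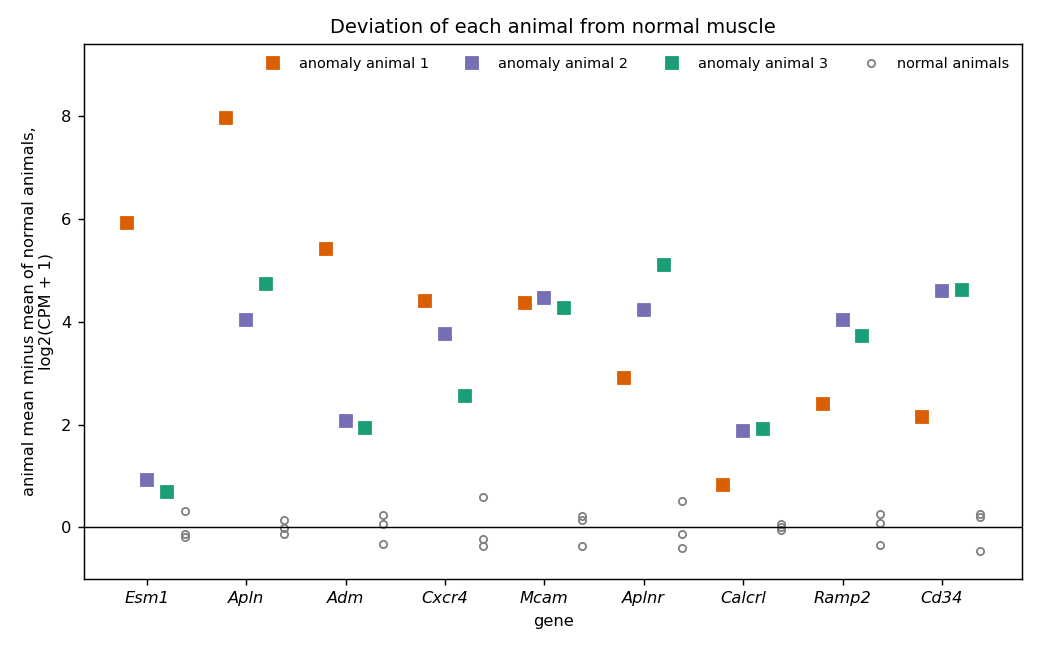
Deviation of each animal from the mean of normal animals, in log2(CPM + 1), for the 9 genes, with squares for anomaly animals 1 to 3 and open circles for normal animals. Esm1, Apln, Adm and Cxcr4 are highest in anomaly animal 1, Aplnr, Calcrl, Ramp2 and Cd34 are lowest in it, and Mcam lies between 4.27 and 4.46 in all 3.

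Other genes used as tip cell markers were read from a list of 20. Of these, 18 were higher, none was lower and 2 were not called, against 32.4% higher and 31.0% lower among all genes tested. Their log2 fold changes had a median of 4.16, against 3.68 for the 12 endothelial markers, all of which were higher. The 4 with the smallest p were Fscn1 (5.21 ± 0.20, limma adjusted p = 0.000105), which bundles actin in filopodia, Flt4 (4.07 ± 0.20, 0.000111), the VEGF-C receptor, Lxn (4.45 ± 0.23, 0.000111), a carboxypeptidase inhibitor, and Igfbp3 (6.17 ± 0.34, 0.000133), which binds insulin-like growth factors. Kcne3, a potassium channel subunit, gave 2.90 ± 1.10 (limma adjusted p = 0.0573) and Rgcc, a regulator of the cell cycle, 0.21 ± 0.56 (0.75). Deviations from the normal mean in anomaly animals 1, 2 and 3 were 4.98, 5.25 and 5.41 for Fscn1 and 6.23, 6.01 and 6.26 for Igfbp3, and a choice by smallest p favours genes with such a small spread. Of the 20 genes, 7 were highest in anomaly animal 1, 11 were lowest in it and 2 lay between, and the median deviations of the list were 4.26, 4.25 and 3.92 in anomaly animals 1, 2 and 3. As examples named after their values had been seen, Kcne3 stood at 5.41, 2.58 and 0.70 and Plaur (urokinase receptor) at 6.85, 4.43 and 3.07, whereas the VEGF receptor gene Kdr stood at 1.45, 3.13 and 3.26 and the VEGF co-receptor gene Nrp1 at 0.82, 2.38 and 2.77. Kcne3, Plaur, Lxn and Pgf, each with a normal mean below 1 CPM, were tested only because their anomaly means reached it. Most leukocyte and pericyte markers were also higher, as given above. The part of such cells in the levels of these 20 genes was not tested.

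Since Adm is a known target of hypoxia-inducible factors, a list of 12 such targets was read beside it. None was higher, 6 were lower and 6 were not called, against 32.4% higher and 31.0% lower among all genes tested. Those with the smallest p were Egln1 (-2.51 ± 0.29, limma adjusted p = 0.000812), Ldha (-3.62 ± 0.60, 0.00275), Pgk1 (-1.66 ± 0.44, 0.0166) and Vegfa (-2.46 ± 0.73, 0.0249), which encode an oxygen sensor, 2 enzymes of glycolysis and the main growth factor of endothelium. The Vegfa call was lost in 7 of 18 alternatives and the Pgk1 call in 2, library totals (-0.55, adjusted p = 0.323) and without normal animal 1 (0.059). Muscle fibre markers were lower too, as given above, and their part in this result was not tested. Within the anomaly group the list was highest in animal 1, as Adm was, with median deviations of 0.55, -1.30 and -1.36 log2 units in animals 1, 2 and 3. The list was split in animal 1, where its median was above normal muscle but Egln1 stood at -2.08, Ldha at -2.52, Pgk1 at -0.64 and Vegfa at -0.94. Slc2a1, the glucose transporter GLUT1, named after its values had been seen, stood at 4.90, 1.33 and 0.82 (limma adjusted p = 0.0868). Whether low oxygen had a part in the levels of Adm or of these genes was not tested.

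The third comparison set each member against the 12 endothelial genes of the same library, as the member's log2(CPM + 1) minus their mean, to see which members differed beyond the endothelial level. That endothelial mean was 7.62, 8.42 and 8.66 in anomaly animals 1, 2 and 3, against 4.67, 4.81 and 4.43 in normal animals 1, 2 and 3. Relative to it, 2 members were higher in every anomaly animal than in every normal animal. Apln stood at 2.04, -2.68 and -2.23 in anomaly animals 1, 2 and 3, against -3.09, -2.96 and -2.74 in normal animals 1, 2 and 3, a difference of 1.97. Without anomaly animal 1 that difference was 0.47 (exact permutation p = 0.2), and with piece 1 alone it was 1.39 (exact p = 0.7). Mcam stood at 2.02, 1.33 and 0.90 in anomaly animals, against 0.85, 0.61 and 0.48 in normal animals, a difference of 0.77, which was 0.47 (exact p = 0.2) without anomaly animal 1. Calcrl was below in every anomaly animal, at -3.17, -2.91 and -3.11, against -1.08, -1.12 and -0.80 in normal animals, a difference of -2.06. Single genes of the 12 endothelial ones had log2 fold changes between anomaly and normal tissue of 2.43 to 4.51. That of Mcam, 4.37, lay within this range, that of Apln, 5.57, above it and that of Calcrl, 1.54, below it. Each of these 3 members had an exact two-sided permutation p of 0.1, the smallest that 3 against 3 can give, so none could reach 0.05. Differences of the other 6 were -1.09 for Esm1 (exact p = 0.6), 0.48 for Aplnr (0.2), -0.46 for Adm (1), -0.21 for Ramp2 (0.6), -0.03 for Cxcr4 (1) and 0.19 for Cd34 (0.8). In Esm1, Adm and Cxcr4 the normal animals lay between anomaly animal 1 and anomaly animal 3. Relative to endothelial genes, these members thus exceeded normal muscle in animal 1 and not in animal 3.

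**Figure D4:**
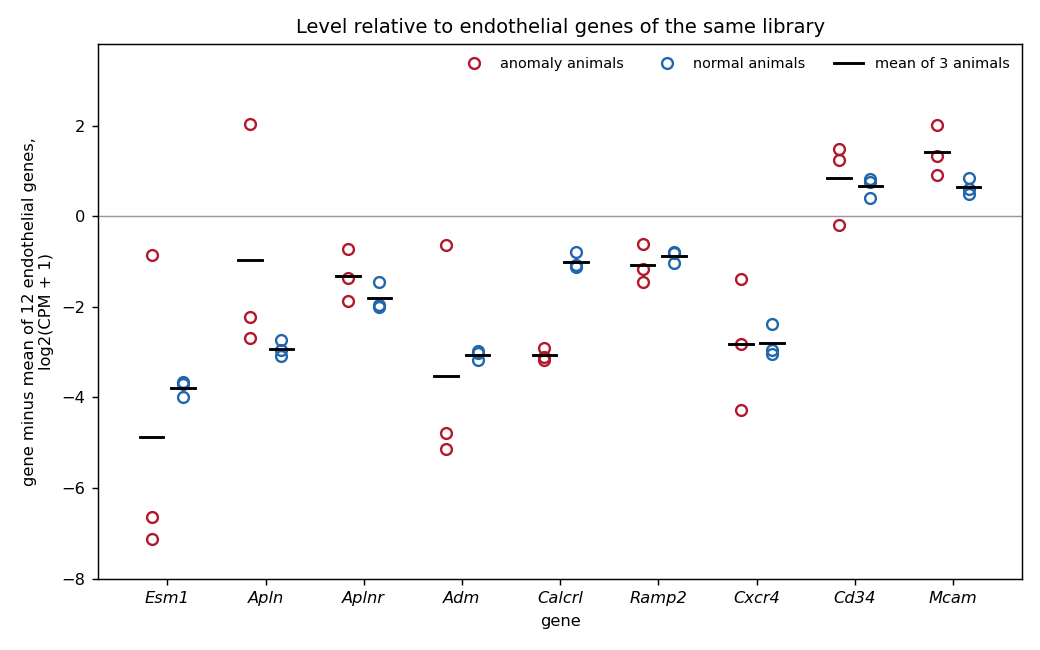
Level of each gene minus the mean of 12 endothelial genes of the same library, in log2(CPM + 1), averaged per animal, with anomaly animals left of normal animals and bars for the mean of 3. Calcrl is lower in all anomaly animals, by 2.06 on average, Apln and Mcam are higher in all of them, and for the other genes the groups overlap.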

How the data were processed

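The authors deposited 1 table of log2 values of CPM for 30389 Ensembl genes, per the file headers. The submitters' processing notes name STAR, limma and the build mm10 (GRCm38), without versions. Per the labels' protocols, total RNA was isolated with a Qiagen kit from snap-frozen tissue, and 1 ug went into poly-A selected, unstranded Illumina TruSeq libraries. The deposited log2 values shared a floor of -6.707, removed to recover CPM and then reads, since 100% of values were whole multiples of 1 step within 0.01. These CPM hold the authors' scaling, with effective size 1.43 to 2.12 times the recovered reads in anomaly libraries and 0.712 to 0.800 times in normal libraries.

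Both libraries of an animal were averaged as log2(CPM + 1). A gene was tested if either group's mean reached 1 CPM, which 14687 genes did. The test was limma 3.58.1 under R 4.3.3, with a trended and non-robust prior, and p was adjusted over all of these genes (Benjamini-Hochberg, 0.05). The p-values of limma's F test among anomaly animals came from single libraries. Ratios were tested by exact permutation of animals. Count models were not used because the table holds log values, and voom on recovered reads was an alternative. The fits were tested on simulated data. Gene models came from GENCODE for GRCm38. Where a file gave no symbol, the GENCODE symbol of its identifier was used.

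The members, gene lists and tests were chosen with earlier results of these data known. A few listed partner genes are not reported here. Named were all members, the other partner genes, up to 4 genes of each other list with the smallest p, and for each member the 2 genes nearest in pattern. Also named were the uncalled genes of the tip cell and leukocyte lists and a gene that shares exons with Ramp2. Any other gene is marked where it is named.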

Additional observations from a re-analysis of the deposited data

How the results depend on the processing

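The number of members higher in anomaly tissue stayed between 7 and 9 over 18 alternatives, none was lower in any of them, and the number that differed among anomaly animals was 7 in all 4 alternatives. Piece numbers shared only a number (mean piece differences of the groups correlated at -0.0389), and with piece as a replicate block over 12 libraries 9 members were higher, Esm1 included (2.50, limma adjusted p = 0.0443). Scaling by library totals alone shifted all genes to a median log2 fold change of 0.97 and the calls to 8962 higher and 1850 lower, against 4765 and 4553, and members stayed higher, by 2.64 (Calcrl) to 6.58 (Apln). Crcp, uncalled at -0.46, was called higher under library totals (0.65, limma adjusted p = 0.0328) and lower under median-of-ratios scaling (-0.52, 0.0435) and without anomaly animal 1 (-0.52, 0.0464). Dpp4, uncalled throughout, reversed under library totals (0.48) and with piece 2 alone (0.49). Relative to endothelial genes, signs turned with piece 1 alone for Aplnr (-0.52), Cd34 (-0.23) and Cxcr4 (0.07), and for Cxcr4 with the median of those genes (0.01) and a pseudocount of 0.25 (0.25). Leaving out 1 animal at a time gave a range of -0.85 to 0.06 for Dpp4 and, relative to endothelial genes, ranges of -3.10 to 0.03 for Esm1, -1.90 to 0.35 for Adm, -0.75 to 0.69 for Cxcr4 and -0.13 to 0.70 for Cd34. The causes of these reversals were not tested. Depth limits low genes in the shallow library, where values near 1 CPM were not resolved.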

Other observations

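The genes nearest to each member in pattern were sought as the smallest root mean square difference of the deviations from the normal mean over 6 animals, in log2(CPM + 1), and are given as a description. Esm1 was nearest to Gkn1 (0.28) and Acod1 (0.37), Apln to Pgf (0.55) and Timp1 (0.60), and Adm to Tnfrsf26 (0.09) and Disp2 (0.28). The choice fixed their likeness to the member, so their values are given only as examples, with Gkn1 at 5.51, 1.23 and 0.54 and Timp1, an inhibitor of matrix metalloproteinases, at 7.47, 5.13 and 3.93 in anomaly animals 1, 2 and 3. Aplnr was nearest to Thsd1 (0.21) and Unc5b (0.22), a netrin receptor gene that is also on the list of other tip cell genes. Cxcr4 was nearest to Spi1 (0.15), the myeloid transcription factor PU.1, and Cyba (0.18), a subunit of the phagocyte oxidase. Calcrl was nearest to Mmp15 (0.08) and Hmg20b (0.10), Ramp2 to Snn and Nsg1 (0.16 each), Cd34 to Prrg3 (0.16) and Arhgap18 (0.23), and Mcam to Bcl6b and Tmsb10 (0.13 each).

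Markers of dividing cells summed to 165 to 591 CPM in anomaly libraries, against 0.746 to 1.76 CPM in normal libraries. Their medians were 6.01, 5.94 and 5.92 log2 units above normal in anomaly animals 1, 2 and 3. Of these markers 4 of 4 were higher, against 32.4% of all genes tested. All 4 had normal means below 1 CPM and were tested only because their anomaly means reached it, so that count is a description. Of 3 satellite cell markers tested, Vcam1 was higher, and Pax7 (-1.21 ± 0.44, limma adjusted p = 0.0484) and Myf5 (-1.07 ± 0.27, 0.0141) were lower. Endothelial markers and most leukocyte markers were higher too, and the part of other cells in the Vcam1 level was not tested. Pax7 and Myf5 had anomaly means below 1 CPM and were tested only because their normal means reached it. Of the 9 members in 2 groups of 6 libraries, none had a library far enough from the others to pass Dixon's 95% critical value. That test reads the gap between 1 library and its nearest neighbour. It therefore could not flag an animal whose 2 libraries were both high, as those of anomaly animal 1 were for Esm1.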
